A study of Mus musculus with 6 samples.

Results

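Endothelial cells line the blood vessels of the brain, and 10 of their genes were followed in libraries of sorted microglia: Cldn5, Cdh5, Esam, Pecam1, Kdr, Flt1, Slco1a4, Abcb1a, Vwf and Itm2a. The genes were chosen by symbol, and all 10 were found among the 16179 genes of the deposited table. Microglia were taken from hippocampi of male mice, 10 months of age, of the strain B6.129S4(FVB)-Grntm1.1Far/Mmja, in which Grn, the gene of progranulin, is knocked out, so that all 6 libraries carry the knockout, and wild-type cells were not analysed here. Tissue of 2 mice was combined for each library, and about 10000 live cells with CD11b on their surface and little CD45 were collected per sort. BODIPY, a dye of neutral lipids, parted the cells into a fraction low in lipid droplets (BODIPY-low, 3 libraries) and a fraction rich in them (BODIPY-high, 3 libraries). Values of single libraries are given in the order of replicates 1, 2 and 3 of the low and then of the high fraction. Whether libraries of the fractions share a pool of mice is not given in the labels, and a p-value here reflects no more than the scatter of these 6 libraries.

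Brain endothelial cells form the blood-brain barrier. Their tight junctions, sealed chiefly by claudin-5, close the gaps between neighbouring cells, and carriers and efflux pumps on their membranes decide which solutes cross. Vascular endothelial growth factor, acting through the receptors that Kdr and Flt1 encode, maintains and remodels these vessels. None of the 10 genes is a classical marker of microglia, although Pecam1 is also made by platelets, neutrophils and monocytes, Vwf and Esam by megakaryocytes and platelets, and Flt1 by monocytes. Slco1a4 and the transporters Slco1c1, Slc22a8 and Slco1a5 described with it are also known from the epithelium of the choroid plexus, which makes cerebrospinal fluid.

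Only Slco1a4, which encodes an organic anion transporter of the barrier, passed the test of a difference between the fractions. Its level was 4.53 times as high in lipid-droplet-rich as in lipid-droplet-low cells, while Cldn5, Cdh5, Esam, Pecam1, Flt1 and Abcb1a overlapped between the fractions. Itm2a, Vwf and Kdr were higher in all 3 high libraries but did not pass after adjustment over all genes. Of all tested genes, limma called 9.79% higher, and in 18.0% every high library lay above every low library.

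Sequence is shown first for the pair of genes that the contrast turns on, the junction gene Cldn5 and the transporter gene Slco1a4. The windows run from 250 bases before to 50 bases after the RefSeq start on GRCm38.p6. That of Cldn5 is chr16:18776597-18776896 on the plus strand and that of Slco1a4 is chr6:141856171-141856470 on the minus strand. Capitals mark the letters GGAA on either strand (TTCC as printed), the core bound by ETS factors, a family that includes Erg and other factors of endothelial cells.
Cldn5: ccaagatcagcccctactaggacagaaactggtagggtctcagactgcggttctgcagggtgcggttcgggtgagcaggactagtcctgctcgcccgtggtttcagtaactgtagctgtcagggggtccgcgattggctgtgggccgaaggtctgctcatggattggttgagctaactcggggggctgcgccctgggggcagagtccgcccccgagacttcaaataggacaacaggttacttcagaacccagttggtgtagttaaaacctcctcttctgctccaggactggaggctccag
Slco1a4: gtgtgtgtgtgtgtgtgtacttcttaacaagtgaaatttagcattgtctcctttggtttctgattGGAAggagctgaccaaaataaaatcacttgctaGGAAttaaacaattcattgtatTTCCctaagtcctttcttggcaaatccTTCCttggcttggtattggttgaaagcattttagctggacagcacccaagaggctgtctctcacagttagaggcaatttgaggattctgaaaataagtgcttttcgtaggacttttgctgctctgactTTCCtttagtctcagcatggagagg
The Slco1a4 window holds 5 such matches, and the Cldn5 window holds 0. Of the 10 genes, 6 have an entry in the promoter table used, and 5 of these 6 windows hold at least 1 match (Itm2a 5, Kdr 5, Abcb1a 5, Flt1 4). The Abcb1a window (chr5:8566841-8567140) lies upstream of the GENCODE span of the gene, which starts at 8660077, and not at that start. The letters are common, since 96.0% of all 32851 promoter windows of this length hold them. A match describes letters only and is not a site shown to be bound.

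Identical stretches in related genes bear on how far reads can be assigned. Every window of 100 bases, the length of 1 read, in the longest coding transcript of each gene was compared with the transcripts of all other genes (GENCODE M21, GRCm38). For 8 of the 10 genes no window occurred elsewhere. In Slco1a4, 41 of 3724 windows (1.10%) also occurred in Slco1a1 or Slco1a5, its neighbours in the gene family, and they formed the 1 stretch of 140 coding bases printed here, from exons 9 and 10 (chr6:141825078-141826258, minus strand, with the intron between them left out). In Abcb1a, 378 of 4898 windows (7.72%) also occurred in Abcb1b or Abcb4, in several separate stretches. The longest, of 338 coding bases from exons 13 and 14, is shared with Abcb1b and not printed. The stretch of 174 coding bases printed here, from exons 27 and 28 (chr5:8746584-8747456, plus strand, intron left out), is also shared with Abcb1b.
Slco1a4 shared stretch: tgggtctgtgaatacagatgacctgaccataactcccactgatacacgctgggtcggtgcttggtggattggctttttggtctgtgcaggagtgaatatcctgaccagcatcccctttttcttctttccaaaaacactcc
Abcb1a shared stretch: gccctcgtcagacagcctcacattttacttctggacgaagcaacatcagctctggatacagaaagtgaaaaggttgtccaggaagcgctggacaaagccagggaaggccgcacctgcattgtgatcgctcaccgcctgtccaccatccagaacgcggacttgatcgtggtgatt
Reads were counted with the gene counting of STAR, and the sources used here do not spell out its handling of reads from such stretches. The values of Abcb1a thus carry more doubt than those of the other genes. Reads came in pairs, which windows of 1 read do not take into account. Exons of Abcb1a also overlap 553 exon bases of the predicted gene Gm42686 on the other strand.

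The libraries held between 24982215 and 34899425 recovered reads, with 14304 to 14783 genes detected in each. Of the 12821 genes tested, limma called 1255 higher and 451 lower in the high fraction. Without high replicate 3 it called 689 higher and 219 lower, and without low replicates 2 and 3 in turn 180 and 151 lower. Genes that define microglia were abundant in every library: Csf1r, the receptor that keeps microglia alive, was the highest of 12 listed in normalised reads, and the list summed to between 1558383 and 1974659 normalised reads per library. Of these 12, limma called Ptprc (CD45), Cx3cr1 and Itgam (CD11b) lower in the high fraction. Per kilobase of exon, Csf1r had 82805 and Cldn5 57.0 normalised reads in the low fraction. The calls of Ptprc, Cx3cr1 and Itgam did not hold in every fit with 1 library left out, and no fit reversed their direction. Ptprc lost its call without low replicate 1, 2 or 3 or high replicate 2 or 3 (limma adjusted p up to 0.134), Cx3cr1 without the same libraries (up to 0.173) or with no filter on low genes (0.0690), and Itgam without low replicate 2 or high replicate 3 (up to 0.0803). Reads of the 10 endothelial genes took a share of 0.00539% ± 0.000302 (SD, n = 3) in the low and 0.00741% ± 0.000399 (SD, n = 3) in the high fraction, of all recovered reads. Without Slco1a4, the remaining 9 genes took from 0.00471% (95% exact interval 0.00444 to 0.00499) to 0.00536% (0.00508 to 0.00565) in the low fraction and from 0.00518% (0.00494 to 0.00543) to 0.00618% (0.00588 to 0.00650) in the high fraction, so that the fractions overlapped. These exact (Clopper-Pearson) intervals cover counting error only, because copies of 1 molecule made by amplification were not told apart. In such bulk libraries, a difference in the number of cells that carry a transcript and one in RNA per cell cannot be told apart. Which cells the reads of the 10 genes came from was not tested.

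**Figure D1:**
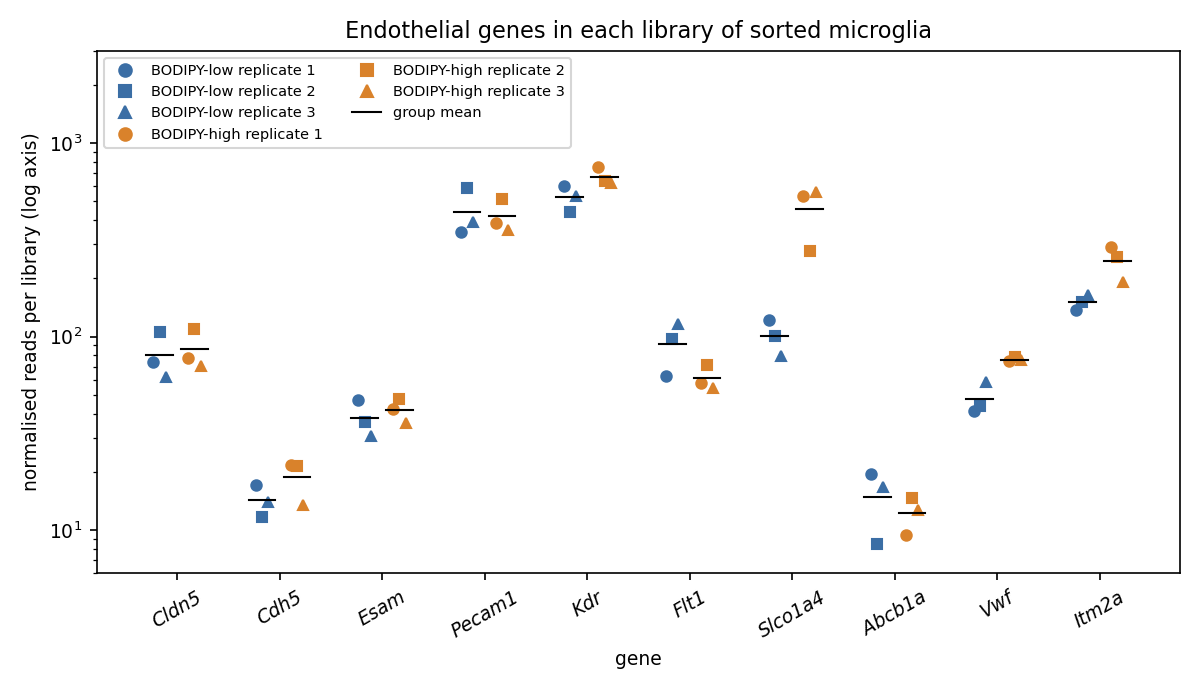
Normalised reads of the 10 endothelial genes (log axis) in each of the 3 BODIPY-low (blue) and 3 BODIPY-high (orange) libraries, with the group means as black bars and the symbol giving the replicate number. Slco1a4 lies between 79.8 and 122 in BODIPY-low and between 277 and 561 in BODIPY-high libraries, while the points of Cldn5 and Pecam1 overlap.

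The genes of cell contacts come first. Cldn5, which encodes the claudin of the barrier's tight junctions (1 exon, chromosome 16, 18776847 to 18778262), had 74.3, 105.5 and 62.2 normalised reads in the low fraction and 77.3, 109.9 and 70.7 in the high fraction. The fractions overlapped, and replicate 2 was the highest library in each. limma gave a log2 difference of 0.10 (high minus low, SE 0.33, 95% interval -0.63 to 0.82, adjusted p = 0.888). The interval leaves room for a change of moderate size in either direction.

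Pecam1, or CD31, joins neighbouring endothelial cells and is also carried by leukocytes and platelets (chromosome 11, 106654217 to 106750628). Its values were 345, 587 and 391 normalised reads in the low fraction and 386, 515 and 358 in the high fraction. As for Cldn5, replicate 2 was the highest library of each fraction, and the fractions overlapped (limma log2 difference -0.05, SE 0.22, 95% interval -0.54 to 0.44, adjusted p = 0.915). Neutrophil markers, made by cells that also carry Pecam1, summed to between 29169 and 78465 normalised reads in the low fraction and between 186 and 2277 in the high fraction, and their part in the Pecam1 values was not tested.

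Cdh5, the VE-cadherin of endothelial adherens junctions (chromosome 8, 104101625 to 104144511), had 17.2, 11.7 and 13.9 normalised reads in the low fraction and 21.7, 21.5 and 13.5 in the high fraction. These values rest on 11 to 23 recovered reads per library. The fractions overlapped, since high replicate 3 lay below low replicates 1 and 3 (log2 difference 0.37, SE 0.56, 95% interval -0.87 to 1.60, limma adjusted p = 0.727). Esam, an adhesion molecule of endothelial junctions and platelets (chromosome 9, 37528078 to 37538319), had 46.9, 36.2 and 30.6 in the low fraction and 42.4, 47.6 and 35.8 in the high fraction. It overlapped as well (log2 difference 0.15, SE 0.40, 95% interval -0.72 to 1.02, limma adjusted p = 0.849).

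The receptor genes for vascular endothelial growth factor pointed in opposite directions, and neither passed the test. Kdr encodes the main signalling receptor (chromosome 5, 75932827 to 75978458) and had 603, 441 and 534 normalised reads in the low fraction and 756, 633 and 624 in the high fraction. Each high library exceeded each low library, by a narrow margin (log2 difference 0.36, SE 0.16, 95% interval 0.0042 to 0.71, limma adjusted p = 0.180). Flt1 encodes the decoy-like partner receptor that binds the same ligand (chromosome 5, 147561604 to 147726011). Its values were 62.9, 97.0 and 116 in the low fraction and 57.5, 71.4 and 54.0 in the high fraction. The fractions overlapped, as high replicate 2 exceeded low replicate 1 (log2 difference -0.55, SE 0.34, 95% interval -1.29 to 0.19, limma adjusted p = 0.332). Within a library, the ratio of Kdr to Flt1, in normalised reads not corrected for length, was 9.58, 4.55 and 4.61 in the low fraction and 13.1, 8.87 and 11.6 in the high fraction. These ratios overlapped too.

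Slco1a4 encodes an uptake and efflux carrier for organic anions such as steroid conjugates (chromosome 6, 141805440 to 141856199). It had 122, 100.2 and 79.8 normalised reads in the low fraction and 532, 277 and 561 in the high fraction. No high library came down to the level of any low library, and high replicate 2 was the lowest of its fraction. Slco1a4 rose from 101 ± 21.3 to 457 ± 156 (SD, n = 3 each), a limma log2 difference of 2.12 (SE 0.29, 95% interval 1.48 to 2.77, adjusted p = 9.00e-04). It was called in all 15 alternative analyses, with log2 differences from 1.94 to 2.45. Set against Cldn5 in the same library, Slco1a4 had a ratio of 1.65, 0.949 and 1.28 in the low fraction and 6.89, 2.53 and 7.93 in the high fraction, so that the fractions were apart on this measure as well.

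Abcb1a encodes P-glycoprotein, the efflux pump that keeps many drugs out of the brain (chromosome 5, 8660077 to 8748575). It had 19.4, 8.52 and 16.7 normalised reads in the low fraction and 9.42, 14.7 and 12.7 in the high fraction, from 8 to 18 recovered reads per library. The fractions overlapped (log2 difference -0.21, SE 0.63, 95% interval -1.59 to 1.18, limma adjusted p = 0.876). Its paralog Abcb1b shares the stretch printed above and others. Abcb1b stood at 983, 927 and 956 in the low fraction and 813, 583 and 750.0 in the high fraction (log2 difference -0.43, SE 0.15, limma adjusted p = 0.0779, but 0.0434 without high replicate 1). Reads of Abcb1b thus outnumbered those of Abcb1a in every library, and their part in the Abcb1a values was not tested.

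Vwf encodes von Willebrand factor, the clotting protein stored by endothelial cells and platelets (chromosome 6, 125546774 to 125686679). It had 41.2, 43.7 and 58.5 normalised reads in the low fraction and 74.4, 78.2 and 75.5 in the high fraction. The high libraries were all above the low ones (log2 difference 0.68, SE 0.33, 95% interval -0.05 to 1.40, limma adjusted p = 0.216). Of 4 tested platelet markers, Itgb3, an integrin subunit that microglia also express, fell, Gp9 and 2 others did not pass, and the median log2 difference was -0.41. The 7 listed markers in the table summed to between 4773 and 5714 normalised reads in the low and between 2905 and 4332 in the high fraction, most of it Itgb3. Without Itgb3 the other 6 summed to between 449 and 501 in the low and between 270.4 and 449 in the high fraction. Most of that sum was Gp9 in each library. Itgb3 lost its call without low replicate 1, 2 or 3 or high replicate 2 or 3 (limma adjusted p up to 0.120). Gp9, a subunit of the platelet receptor for von Willebrand factor, had 204 to 436 normalised reads in the 6 libraries, and Gp1bb, another subunit of that receptor, had 0 to 2 reads. Of other platelet genes, Clec1b had up to 43.7 and Gp1ba up to 30.1 normalised reads in a library. Itga2b, too low to test, had 0, 3.20 and 0 normalised reads in the low fraction and 15.1, 0 and 30.2 in the high fraction. Gp1bb, Clec1b, Gp1ba and Itga2b were named after their values were seen. The part of platelet transcripts in the Vwf values was not tested.

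Itm2a encodes a small membrane protein found in endothelial cells and T cells (chromosome X, 107397099 to 107403376). It had 137, 151 and 164 normalised reads in the low fraction and 289, 257 and 192 in the high fraction. The fractions did not overlap, and high replicate 3 was the closest to the low range (log2 difference 0.69, SE 0.23, 95% interval 0.18 to 1.19, limma adjusted p = 0.0740). The adjusted p of Itm2a stayed between 0.0535 and 0.181 in the 15 alternative analyses.

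**Figure D2:**
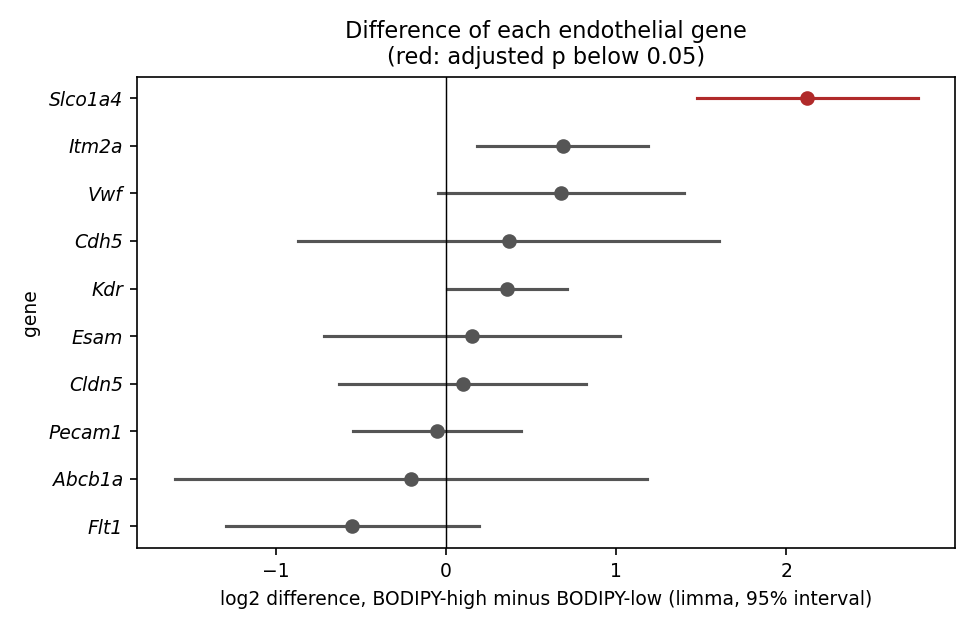
Log2 difference of each of the 10 endothelial genes between BODIPY-high and BODIPY-low libraries from limma (points) with 95% intervals (lines), sorted by size, red where the adjusted p is below 0.05. Only Slco1a4, at 2.12, is red, and Itm2a, Vwf and Kdr follow between 0.36 and 0.69 with Cdh5 among them at 0.37.

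Over the 10 genes, limma called 1 higher, where 9.79% of all tested genes were called higher. It called 0 lower, where 3.52% of all tested genes were called lower. At an unadjusted p under 0.05, 3 of the 10 were higher and 0 lower by limma, beside 16.1% and 11.0% of all tested genes. By edgeR 2 were higher and 0 lower, beside 15.6% and 10.9%, and by DESeq2 2 and 0, beside 15.9% and 10.7%. After adjustment edgeR and DESeq2 also called 1 higher, beside 9.48% and 11.4% of all tested genes. They called 0 lower, beside 3.33% and 5.19%. The groups did not overlap in 4 of the 10 genes, all 4 with high above low, and 18.0% of all tested genes lay apart in that direction, 13.4% in the other and 31.3% in either. The median log2 difference of the 10 was 0.25, beside -0.01 over all tested genes. With so few genes, these counts describe the 10 and say nothing of endothelial cells as a class.

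Per kilobase of exon, levels fell into a higher and a lower tier. In low libraries, Itm2a (86.5 ± 7.75 normalised reads per kilobase, SD, n = 3), Pecam1 (70.8 ± 20.6), Kdr (58.3 ± 8.98) and Cldn5 (57.0 ± 15.8) formed the higher tier, and neighbours in this order overlapped in their libraries. Slco1a4 (15.7 ± 3.32) and Esam (13.2 ± 2.88) followed and overlapped with each other, and Slco1a4 was apart from Cldn5. Flt1 (6.81 ± 1.99) was apart from Esam above and from Cdh5 (3.39 ± 0.650) below, while Cdh5, Vwf (2.97 ± 0.582) and Abcb1a (2.72 ± 1.04) overlapped. In high libraries Slco1a4 stood at 71.2 ± 24.3 and overlapped with its neighbours Kdr (74.3 ± 8.12) and Pecam1 (67.4 ± 13.5). Itm2a (141 ± 28.3) lay apart from Kdr there, Cldn5 (60.7 ± 14.8) overlapped with Pecam1, and Esam (14.6 ± 2.07) was apart from the genes above and below it. Vwf (4.73 ± 0.119), Flt1 (4.51 ± 0.679) and Cdh5 (4.50 ± 1.11) overlapped, each with the next, and Abcb1a (2.24 ± 0.488) lay below Cdh5 in every library. Exon length here is that of all annotated exons merged, which understates the level of a gene whose expressed form is shorter, and Flt1 and Vwf have the longest merged exons (13504 and 16064 bases).

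**Figure D3:**
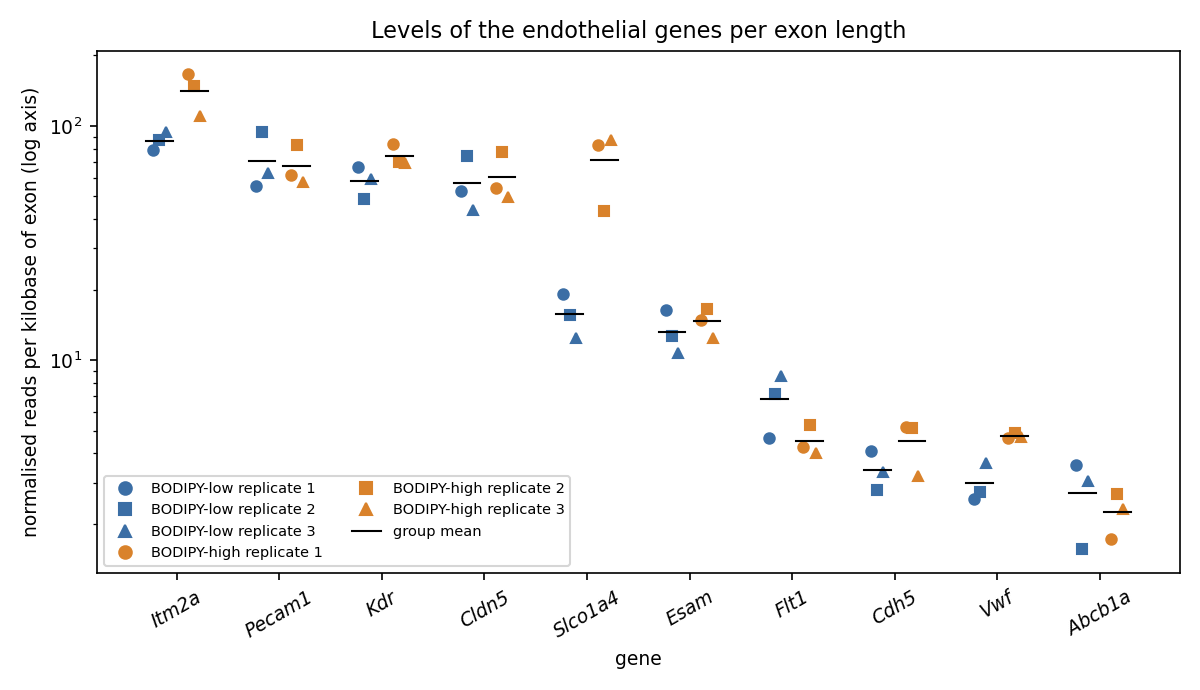
Levels of the 10 endothelial genes as normalised reads per kilobase of merged exon (log axis) in each library, ordered by their mean over the 6 libraries, with group means as black bars. Slco1a4 sits at 15.7 in BODIPY-low and at 71.2 in BODIPY-high libraries on average, among Kdr and Pecam1 in the latter.

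Choroid plexus markers, like Slco1a4, were higher in the high fraction. All 9 listed markers of choroid plexus and ependyma were tested and rose, with Foxj1, Enpp2 and Ttr changing the most and a median log2 difference of 4.64, and their summed level was between 3751 and 18640.3 normalised reads in the low fraction and between 150964 and 264325 in the high fraction. Foxj1, a regulator of motile cilia, lost its call with DESeq2 (adjusted p = 0.0623). It had 11.4, 0 and 0 normalised reads in the low fraction and passed the filter on the mean through its high libraries. Ttr, the transthyretin gene, had 6635, 1077 and 2572 normalised reads in the low fraction and 68025, 58900.1 and 87542 in the high fraction. Within the low fraction Ttr ranged over a factor of 6.16 and Slco1a4 over a factor of 1.53, and replicate 2 had the least Ttr but replicate 3 the least Slco1a4. Within the high fraction replicate 2 was the lowest for both. The part of choroid plexus transcripts in the rise of Slco1a4 was not tested.

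Of 12 tested barrier transporters outside the 10, Slco1c1 and Slc22a8 rose, 1 fell and 9 did not pass, where 9.79% of all tested genes were called higher. Slco1c1, a carrier of thyroxine, rose from 130.1 ± 46.4 to 2031 ± 573 normalised reads (mean ± SD of 3 libraries each, limma log2 difference 3.97, SE 0.27, adjusted p = 2.06e-05). Slc22a8, an organic anion exchanger, rose from 38.6 ± 12.7 to 276 ± 92.1 (log2 difference 2.80, SE 0.36, limma adjusted p = 5.63e-04). Slco1a5, a neighbour of Slco1a4 with matches in its 140-base stretch, had 6.86, 2.13 and 0 normalised reads in the low fraction and 136, 81.5 and 139 in the high fraction. Slco1a5 was looked up for that shared sequence and rose as well (log2 difference 5.32, SE 0.75, limma adjusted p = 0.00103). It passed the filter on the mean through its high libraries, and its low values rest on 0 to 6 recovered reads. Per kilobase of exon, Slco1a5 had a mean of 0.805 and 31.9 normalised reads in the low and the high fraction, beside 15.7 and 71.2 for Slco1a4. The ratio of Slco1a4 to Slco1c1 was 0.669, 1.04 and 0.717 in the low fraction and 0.223, 0.202 and 0.240 in the high fraction, so that these transporters did not keep the same proportion in the 2 fractions.

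**Figure D4:**
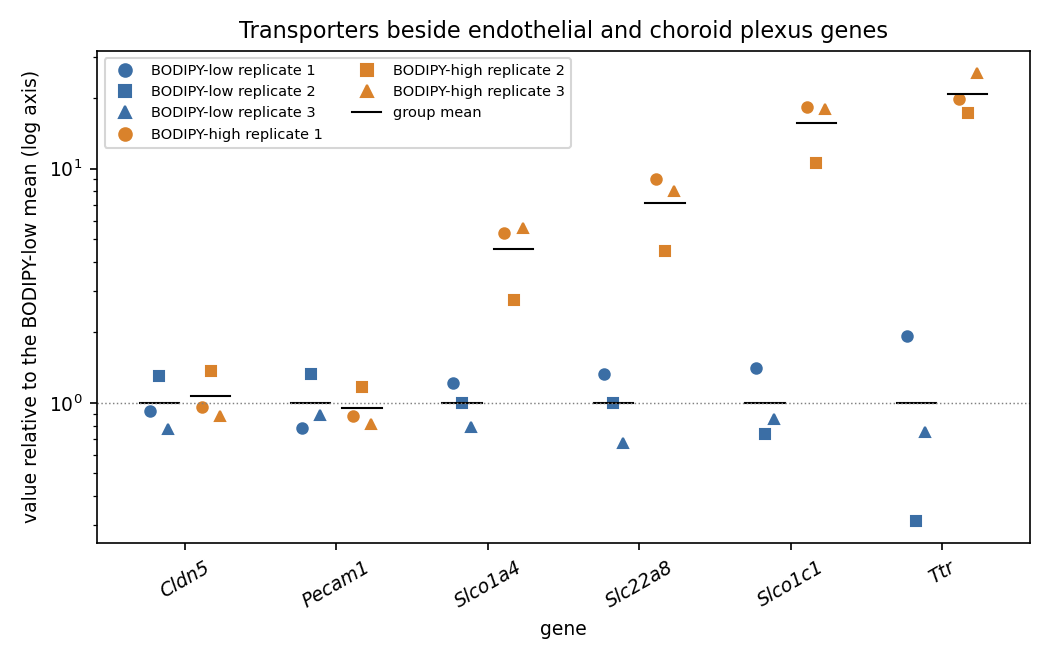
Value of Cldn5, Pecam1, Slco1a4, Slc22a8, Slco1c1 and Ttr in each library relative to the BODIPY-low mean of the gene (log axis), with group means as black bars and the dotted line at 1. Cldn5 and Pecam1 scatter around 1 in both fractions, and the BODIPY-high libraries of Slco1a4, Slc22a8, Slco1c1 and Ttr all lie above their BODIPY-low libraries.

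A wider set of 71 genes in 5 lists was drawn up as genes of endothelial cells beyond the 10. Of these, 61 were tested. Which cells their reads came from was not tested, so the counts below describe the listed genes and not endothelial cells. limma called 11 of the 61 higher and 5 lower, with a median log2 difference of 0.09, beside 9.79% higher, 3.52% lower and a median of -0.01 over all tested genes. The counts of single lists that follow are to be read against the same shares. Without high replicate 3 the count called higher was 7, and without low replicate 2 or 3 or high replicate 3 the count called lower was 3. Of the 71 genes, 17 had a mean above 1000 normalised reads, against 0 of the 10, on values not corrected for length.

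Of 12 adhesion and junction genes 3 rose and 9 did not pass (median log2 difference 0.15). The 3 were Cgnl1, a junction scaffold (log2 difference 2.95, limma adjusted p = 0.00387), Ocln, the tight junction protein occludin (284 ± 38.4 to 730.2 ± 152, SD, n = 3 each, limma log2 difference 1.35, SE 0.19, adjusted p = 9.02e-04), and Ctnna1, a catenin found in most adherens junctions (0.59, limma adjusted p = 0.0225). Ctnna1 lost its call without low replicate 2 or 3 or high replicate 1 or 3 (limma adjusted p up to 0.102). Cd34, a sialomucin, and Tjp1, a junction scaffold, had the highest levels on the list and did not pass.

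Of 12 tested genes of growth factor and Notch receptors 0 rose and 2 fell, with a median of -0.29. Calcrl, the receptor partner of Ramp2 for adrenomedullin, fell from 2175 ± 90.4 to 1504 ± 95.3 normalised reads (mean ± SD of 3 libraries each, limma log2 difference -0.53, SE 0.10, adjusted p = 0.00546). Nrp1, the neuropilin that assists Kdr, fell by 0.33 on the log2 scale (limma adjusted p = 0.0286), but lost its call without any 1 of low replicates 1, 2 and 3 or high replicates 1 and 3 (up to 0.128). Nrp1 and S1pr1, the sphingosine-1-phosphate receptor, were the highest of the list. Per kilobase of exon, Calcrl (446) and Nrp1 (632) stood above Kdr (58.3) in the low fraction.

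The 12 barrier transporters counted beside Slco1a4 had a median log2 difference of 0.02. The 1 that fell was Slc7a5, the large neutral amino acid carrier, which went from 2986 ± 195 to 1999 ± 196 normalised reads (mean ± SD of 3 libraries each, limma log2 difference -0.58, SE 0.11, adjusted p = 0.00458). Slc40a1, the iron exporter ferroportin, and Slc2a1, the glucose carrier of the barrier, had the highest levels and did not pass.

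Among 8 tested transcription factors of endothelial cells 3 rose and 1 fell, with a median of 0.65. Among those that rose, Mecom changed by 2.90 and Lef1, a nuclear partner of Wnt signalling, by 2.20 on the log2 scale, with limma adjusted p of 0.0393 and 0.0197. Lef1 lost its call without low replicate 3 or high replicate 1 or 3 (up to 0.0759), and Mecom without low replicate 1, 2 or 3 or high replicate 2 or 3 (up to 0.159). Mecom had 2 recovered reads in each low library and passed the filter on the mean through its high libraries. Ets1, an ETS factor also made by lymphocytes and the highest of the list before Tal1, fell by 0.41 (limma adjusted p = 0.0122), a call lost without low replicate 2 or 3 or high replicate 3 (up to 0.0648). Erg, the ETS factor that marks endothelial cells most closely, was named after its values were seen: it had 5.72, 0 and 0.928 normalised reads in the low fraction and 0, 0 and 0.795 in the high fraction.

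Of 17 tested genes in the list of other brain endothelial genes 3 rose, 1 fell and 13 did not pass, with a median of 0.15. Sdpr, a coat protein of caveolae, rose by 3.04, Palmd, or palmdelphin, by 2.79 and Pltp, the phospholipid transfer protein, by 2.38 on the log2 scale (limma adjusted p = 0.00359, 0.00310 and 2.06e-05), and these 3 calls held in all 15 alternative analyses. Pglyrp1, a peptidoglycan recognition protein that neutrophils also store in granules, fell from 306 ± 119 to 31.4 ± 19.1 normalised reads (mean ± SD of 3 libraries each, limma log2 difference -3.33, SE 0.42, adjusted p = 5.34e-04). Neutrophil markers fell in the same libraries (9 of 10 tested, median -5.71, Cd177, Ngp and Ltf the most), and their part in the fall of Pglyrp1 was not tested. Pltp and Ly6a had the highest levels on this list.

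Genes of vessel segments differed widely in level, from a few reads for most arterial genes to a mean above 1000 normalised reads for Icam1, Vcam1 and Nid2. Of 8 arterial genes 2 could be tested, of which Efnb2, an ephrin of arteries, fell from 93.4 ± 5.27 to 45.2 ± 3.51 normalised reads (mean ± SD of 3 libraries each, limma log2 difference -1.03, SE 0.31, adjusted p = 0.0499) and Hey1 did not pass. The call of Efnb2 was lost in 13 of 15 alternative analyses (adjusted p up to 0.174 without low replicate 3). Of 4 tested genes of veins and inflamed vessels 2 rose: Nr2f2, the venous nuclear receptor, from 6.51 ± 0.859 to 69.8 ± 17.1 (log2 difference 3.21, SE 0.50, limma adjusted p = 0.00176), and Vcam1, an adhesion molecule, by 0.60 (limma adjusted p = 0.0216). Vcam1 lost its call without low replicate 2 or 3 or high replicate 1 or 3 (up to 0.0995), and Icam1, which was the highest of the list, did not pass. Nr2f2, with a mean of 6.51 in the low fraction, passed the filter on the mean through its high libraries. Of 6 tested genes of fenestrated and tip endothelium 0 passed by limma, Nid2 and Col15a1 being the highest. Plvap, the diaphragm protein of fenestrated vessels such as those of the choroid plexus, was named after its values were seen. It had 51.5, 52.2 and 52.9 normalised reads in the low fraction and 94.2, 82.7 and 76.3 in the high fraction, with no overlap (log2 difference 0.68, SE 0.31, limma adjusted p = 0.184).

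Mural cells sit on the same vessels as endothelial cells, and the levels of their markers were uneven. Some were at or near 0: Rgs5, a pericyte gene, had 0 to 1.14 normalised reads in each of the 6 libraries, and Myh11, Notch3 and Higd1b had 0 reads in all 3 low libraries and at most 5.66, 2.27 and 7.93 normalised reads in a high one. Others were present in every library, with 4.57 to 22.7 normalised reads for Pdgfrb, 14.8 to 36.5 for Tagln, 5.57 to 63.4 for Acta2, 35.0 to 131 for Abcc9 and 3.18 to 229 for Cspg4. Of these, Rgs5, Myh11, Notch3, Higd1b, Pdgfrb, Tagln and Acta2 were named after their values were seen. Of 6 tested mural genes Vtn rose and Cspg4 fell, Vtn and Abcc9 were the highest, and the summed level was between 137 and 347 normalised reads in the low fraction and between 300.3 and 375 in the high fraction. Cspg4 lost its call in 8 alternative analyses (limma adjusted p up to 0.234 without low replicate 3).

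Markers of other cells were counted in the same way. Of 6 fibroblast genes found, 3 could be tested, and these 3 rose (Col1a2, Igf2 and Pdgfra, median log2 difference 4.48). Col1a2 and Pdgfra lost their calls without high replicate 3 (limma adjusted p of 0.0708 and 0.0743). Col1a2 had 0, 4.26 and 0 normalised reads in the low fraction and passed the filter through its high libraries. Dcn, Col3a1 and Col6a1 were too low to test, with at most 27.2, 1.88 and 3.40 normalised reads in a library. They were named after their values were seen. Of 5 monocyte genes 3 fell (Chil3 and Ly6c2 among them, median -4.10). Of 7 genes of border macrophages 1 rose (Cd163, median 0.55), while Mrc1 and F13a1, the highest in normalised reads, did not pass. Of 8 astrocyte genes 2 rose (Aldoc and Aldh1l1, median 1.28), and Slc1a3, the highest, did not pass. Of 6 neuron genes 2 rose (Syt1 and Map2, median 1.93), and Map2 lost its call without low replicate 2 or any 1 of the high replicates (limma adjusted p up to 0.104). Snap25, one of the highest of the neuron list, did not pass, and of 5 oligodendrocyte genes, with Cnp and Mbp the highest, 0 passed by limma (median 0.35).

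**Figure D5:**
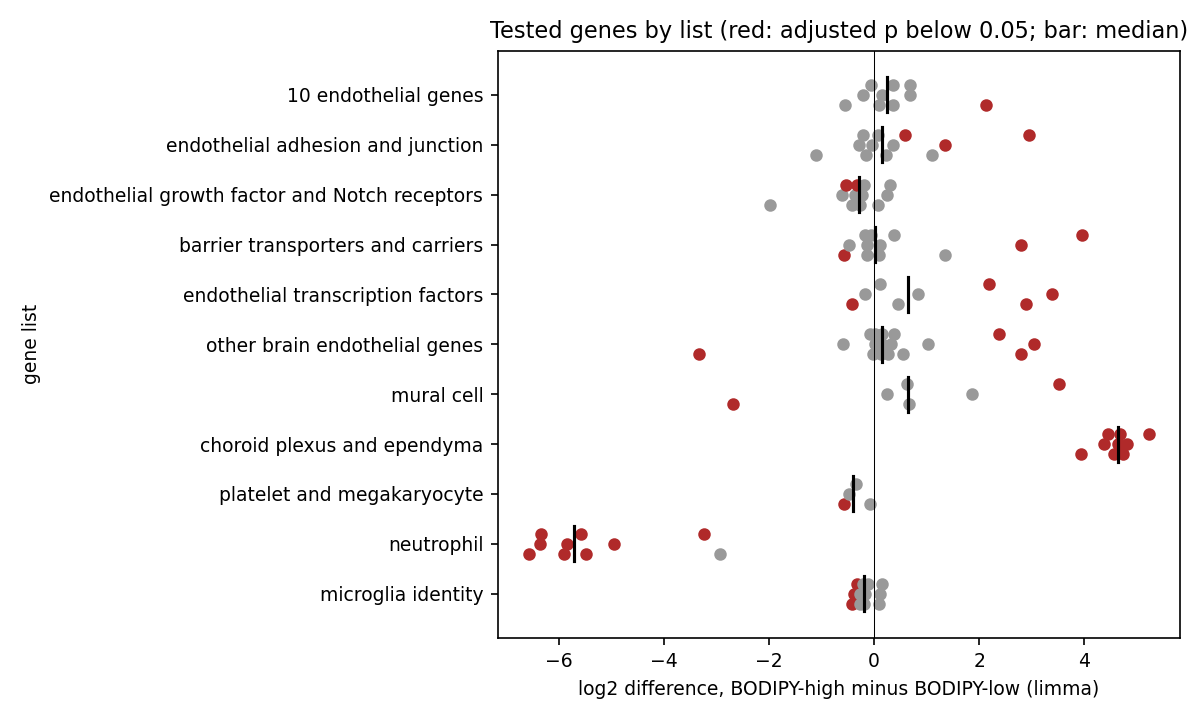
Log2 difference between BODIPY-high and BODIPY-low libraries of every tested gene of the lists shown (points, red where the limma adjusted p is below 0.05) with the list's median as a black bar. The 10 endothelial genes have a median of 0.25, the choroid plexus list lies near 4.64 and the neutrophil list near -5.71.

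The library-to-library pattern of Cldn5 was compared with that of every other gene. Likeness was the root mean square difference, over the 6 libraries, between log2 values centred on the mean of each gene, so that 0 is an identical pattern. Among 12099 named genes outside the 10, the nearest to Cldn5 were Amigo1 (0.0930), AI846148 (0.106), Stk11 (0.108), Adam22 (0.110) and Anxa9 (0.114), beside a median of 0.383 over all genes compared. Among the 10 themselves Pecam1 was the nearest, at 0.150 with 11 other genes nearer, and Esam followed at 0.271 with 1004 genes nearer. Slco1a4 was the farthest, at 1.16 with 10905 genes nearer. Cldn5 and Pecam1 were each highest in replicate 2 of both fractions, as were 10 of the 61 other endothelial genes tested, among them Tek, Ly6c1 and Sox18, and 9.70% of all tested genes. Tek, Ly6c1 and Sox18 were picked after this count was seen.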

How the data were processed

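RNA of 6 libraries of sorted microglia was sequenced over 100 bases from both ends. Per the series' design text and the submitters' processing notes, FastQC 0.11.4, STAR 2.5.3a with its own gene counting on mm10 (mm9 is listed beside it) and DESeq2 were used, and the sources used here give neither the annotation nor the strand setting. The deposited values are a signal that the authors made by dividing the reads of each gene by 1 size factor per library. Whole reads were recovered for 100% of values within 0.01 read. Normalised reads in the text are the deposited values.

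Each gene with a mean of at least 10 was tested with limma 3.58.1 in R 4.3.3, as a two-sided test with trended variance and no block, on log2(value + 1), with Benjamini-Hochberg adjustment over all 12821 genes and calls at an adjusted p below 0.05. Differences are on that log2 scale, which understates those of low genes. The mean of the filter is over all 6 libraries, so a gene low in 1 fraction can pass through the other. edgeR 4.0.16 and DESeq2 1.42.0 on recovered reads were among 15 alternatives. limma was also run on simulated data, with a scatter that was set and not estimated from these libraries. That run does not measure false calls in the present data. Of the symbols, 96.0% matched GENCODE M21 (GRCm38).

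The 10 genes and the lists were chosen with earlier results of these data known. The text names all 10, up to 3 called genes per list and direction with the largest differences, the 2 of each list with the highest mean values (not corrected for length), and the 5 nearest to Cldn5. Other genes are said to be chosen later, and some genes that this rule names are not reported here. Sequences are from RefSeq (promoters, GRCm38.p6) and GENCODE M21 transcripts.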

Additional observations from a re-analysis of the deposited data

How the results depend on the processing

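The count of the 10 endothelial genes called stayed at 1 higher and 0 lower in all 15 alternatives: pseudocounts of 0.5 and 5, no filter, a mean of at least 50 (which left 7 of the 10 tested), edgeR, DESeq2, TMM scaling, robust variance, the replicate block, and each library left out. With 1 library left out, the log2 difference of Cldn5 ranged from -0.090 to 0.31, that of Pecam1 from -0.21 to 0.17 and that of Abcb1a from -0.54 to 0.013, none of them called. Signs turned for Cldn5 without BODIPY-low replicate 3 (-0.069) or BODIPY-high replicate 2 (-0.090), for Pecam1 without BODIPY-low replicate 2 (0.17) or BODIPY-high replicate 3 (0.055), and for Abcb1a without BODIPY-low replicate 1 (0.013). Over all genes, leaving out 1 library gave 689 to 1295 genes called higher and 151 to 523 called lower, and over the other endothelial genes 7 to 11 and 3 to 6; these fits hold fewer libraries, and the cause was otherwise not tested.

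Replicate numbers are shared by the fractions. Deviations from the group means correlated by 0.110, 0.144 and 0.0728 for numbers 1, 2 and 3. Between unlike numbers the correlations ran from -0.115 to 0.00158, so each library correlated best with its own number. The correlations were weak and the labels state no pairs, so the main fit took none. Whether the numbers are pairs cannot be told from these values. With the replicate number as a block, 760 genes were called lower in place of 451 and 1451 higher in place of 1255, and among the other endothelial genes 12 higher in place of 11. Abcb1a and Cdh5, with 8 to 23 reads per library, have the widest intervals.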
